A study of Saccharomyces cerevisiae with 4 samples.

Results

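The mRNAs described here are those encoded within 40 kb of a chromosome end in Saccharomyces cerevisiae. They were taken from the annotation that was deposited with the counts. An mRNA was included if its region ended within the first 40 kb of its chromosome, or started no more than 40 kb before the end of the last annotated region on that chromosome. This rule gave 366 of the 4970 counted regions, with 148 on left arms and 218 on right arms, and it used positions only and no measured value. Each of the 32 chromosome arms held between 3 and 19 of them. The remaining regions were 4543 mRNAs further in and 61 small nuclear and small nucleolar RNAs. On right arms the distance runs from the last counted region, which lay between 2804 and 33885 bases inside the end of the reference chromosome. Measured from the reference ends instead, 297 mRNAs would be included. Chromosome I right had the largest of these gaps.

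The assay was 4tU-seq, which purifies and sequences the RNA that incorporated 4-thiouracil during a brief labelling, and so reads out RNA synthesis. Δsyc1 cells (genotype syc1::kanMX, 2 libraries) were compared with wild-type cells (2 libraries), both in the haploid strain background BY4741. Both groups were grown in YPD at 30 °C to an OD600 of 0.8, labelled with 5 mM 4-thiouracil for 6 min, and sequenced from 100 ng of labelled RNA. The study asked how loss of Syc1, the subunit that defines the APT complex, affects RNA synthesis, and the knockout is a single gene replacement with no rescued strain among the libraries.

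Yeast subtelomeres hold few essential genes and many genes for the uptake or use of nutrients and metals. Next to the telomere, the Sir proteins bind deacetylated histones and can silence transcription, and this silencing is patchy and differs between ends. Subtelomeres also hold gene families whose copies are nearly identical at several ends, so that reads from one copy can be assigned to another.

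Short stretches upstream of some members are shown because 8 members of the sulfur compound list and 8 of the iron, copper and zinc list were called higher in the knockout. CACGTG is a site bound by Cbf1 and AAACTGTGG a site bound by Met31 and Met32, factors of sulfur metabolism genes. A match does not show which factor binds there. TGCACCC is the core bound by Aft1, a factor of iron uptake genes. The letters were searched on both strands in the 500 bases upstream of each deposited start. Each run below is written 5′ to 3′ on the strand of its gene, from assembly R64 (sacCer3), with the matched letters in capitals, and for a gene with several matches the one nearest to the start is shown.
YCT1, chrXII:29325-29390, plus strand: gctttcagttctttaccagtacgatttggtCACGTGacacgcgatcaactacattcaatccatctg
PHO89, chrII:798810-798875, minus strand: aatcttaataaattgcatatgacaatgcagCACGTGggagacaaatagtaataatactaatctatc
MUP3, chrVIII:25749-25814, plus strand: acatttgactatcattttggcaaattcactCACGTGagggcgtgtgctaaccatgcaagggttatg
GIT1, chrIII:299088-299153, minus strand: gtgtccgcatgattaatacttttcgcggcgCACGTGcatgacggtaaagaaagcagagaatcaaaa
BIO2, chrVII:1065156-1065221, minus strand: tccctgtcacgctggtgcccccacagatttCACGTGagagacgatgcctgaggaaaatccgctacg
MHT1, chrXII:17754-17822, minus strand: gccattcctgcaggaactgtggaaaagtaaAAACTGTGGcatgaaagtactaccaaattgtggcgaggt
MMP1, chrXII:17754-17822, plus strand: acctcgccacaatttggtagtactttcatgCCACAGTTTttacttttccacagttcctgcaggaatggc
MUP3, chrVIII:26029-26097, plus strand: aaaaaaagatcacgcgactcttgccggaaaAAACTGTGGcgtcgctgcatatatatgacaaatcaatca
FIT3, chrXV:1061203-1061269, minus strand: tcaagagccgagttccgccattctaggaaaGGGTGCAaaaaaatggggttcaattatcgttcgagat
FRE5, chrXV:1061304-1061370, plus strand: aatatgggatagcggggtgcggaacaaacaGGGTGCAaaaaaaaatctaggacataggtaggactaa
ARN1, chrVIII:21195-21261, minus strand: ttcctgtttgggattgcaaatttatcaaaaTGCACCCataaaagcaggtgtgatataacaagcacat

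MHT1 and MMP1 are transcribed away from each other, and the run printed for each is the same stretch read from opposite strands. FIT3 and FRE5 are also divergent, with overlapping search windows, so that the same TGCACCC matches are counted for both. CACGTG stood upstream of 8 of the 50 members called higher in the knockout (16%), of 5 of the 37 called lower (13.5%), of 7.65% of all 366 members and of 7.03% of all 4909 mRNAs. AAACTGTGG was found for 3 members called higher and for 0 called lower, against 5 of all members and 0.998% of all mRNAs. Of the sulfur list members called higher, SEO1, SAM3, OPT1 and BDS1 held neither CACGTG nor AAACTGTGG in the window. PHO89, GIT1 and BIO2, printed above, are in neither the sulfur nor the metal list, and GIT1 and BIO2 were called lower. Of the members called higher with CACGTG, only YCT1 and MUP3 are in the sulfur list, while PHO89 is in the list for phosphate use. CACGTG also stood upstream of called members not printed, among them OPT2, RMD6, ARR3 and HOM6. TGCACCC was found upstream of 14% of the members called higher, 2.70% of those called lower, 5.19% of all members and 2.59% of all mRNAs. Those called higher were ARN1, FIT2, FIT3, FRE3, FRE4, FRE5 and FRE6, all in the metal list. ZRT1, also called higher and in that list, held no match. AGGGG, the stress response element read by Msn2 and Msn4, was found for 56.0% of the members called higher, 29.7% of those called lower and 35.0% of all mRNAs. It can lie within other matches, and for ARN1 it overlapped a TTAGGG match. TTAGGG, bound by Tbf1, was found for 16% of the members called higher and 5.41% of those called lower, against 12.7% of all mRNAs, and TTACCCG, bound by Reb1, for 4.00% of those called higher and 16.2% of those called lower, against 11.4% of all mRNAs. Of the other letters searched, TCGTATA, bound by Upc2, was found for 4.00% of the members called higher, 2.70% of those called lower and 6.6% of all mRNAs, and TCCGCGGA, bound by Pdr1 and Pdr3, for 4.00% of those called higher, 0 of those called lower and 0.652% of all mRNAs. These matches describe letters in a window and were not tested.

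The deleted gene SYC1 (YOR179C, chromosome XV) was counted 1 and 2 times in the Δsyc1 libraries, against 743 and 794 times in wild-type. The 2 Δsyc1 libraries totalled 26089573 and 22880058 counts and the 2 wild-type ones 36175417 and 35203133, so that the knockout values rest on shallower libraries. The labelled strain was checked against its markers. LEU2, MET17 and URA3, which BY4741 lacks, had 0 counts in each of the 4 libraries. The a-cell pheromone receptor gene STE2 was at 312 and 287 CPM in knockout and 735 and 723 CPM in wild-type libraries, where CPM are counts scaled to the effective library size (TMM). The other a-cell genes MFA1, MFA2, BAR1 and AGA2 were counted in every library and were also lower in each knockout library. Of the α-cell genes, MF(ALPHA)1 reached at most 0.134 CPM and STE3 up to 4.30 CPM. SAG1, the α-agglutinin gene, was at 95.2 and 92.6 CPM in knockout and 87.0 and 90.7 CPM in wild-type libraries. The SAG1 level is not the pattern of the mating type a of BY4741. The low MF(ALPHA)1 and STE3 levels and the counted a-cell genes do follow that pattern.

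Subtelomeric mRNAs together took a slightly smaller part of the counts in Δsyc1 cells. Their share was 6.42% (95% Wilson interval 6.41 to 6.43) and 6.41% (6.40 to 6.42) in the knockout libraries, against 6.68% (6.67 to 6.69) and 6.66% (6.65 to 6.66) in the wild-type libraries. These intervals cover counting error only, and in libraries of whole cultures fewer expressing cells and less RNA per cell cannot be told apart. The groups did not overlap, and the means were 6.41% ± 0.0113 in knockout and 6.67% ± 0.0160 in wild-type libraries (SD, n = 2 each). The difference was -0.253 percentage points (two-sided exact permutation p = 0.33, the lowest value possible with 2 libraries in each group). Without the 5 members with the most counts (YLR460C, ERO1, EGT2, YML131W and NIP1), the difference was -0.0637 points. The most counted of them, YLR460C, an uncharacterised relative of quinone reductases, was at 2173 and 2102 CPM in knockout and 3044 and 3034 CPM in wild-type libraries, while ERO1, the oxidase of disulfide bond formation in the endoplasmic reticulum, was at 2579.6 and 2543 CPM in knockout and 1799 and 1769.6 CPM in wild-type libraries. Neither passed the fold change minimum of 1.5 used below.

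Of the 366 members, 351 reached a mean normalized count of 30 in 1 of the groups and were tested with the quasi-likelihood test of edgeR, fitted on all 4845 regions that passed. A gene was called at an adjusted p under 0.1 (Benjamini-Hochberg over all regions tested) and a fold change over 1.5. In the knockout, 50 members rose (14.2%), where 9.08% of all regions tested did. A further 37 members fell (10.5%), where 8.15% of all regions did, and 264 were not called. Among mRNAs further in, 388 of 4451 rose (8.72%) and 322 fell (7.23%). The median log2 fold change (knockout over wild type) of the members was -0.02, with quartiles of -0.27 and 0.33, against -0.01 for mRNAs further in, with quartiles of -0.24 and 0.23. Both knockout libraries lay above both wild-type libraries for 148 members (42.2%, against 40.5% of all regions) and below both for 146 (41.6%, against 43.2%). All 50 members called higher and all 37 called lower were among these. For a called member, groups that do not overlap are therefore no further evidence.

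The split of calls depends on the scaling. Without normalization factors, 34 members were called higher and 53 lower, and the median log2 fold change of all regions moved to -0.17. The rises lost there included FIT2, FRE3, FRE4, FRE6, CAN1, PTR2, BDH1, BAT2 and ATP1. With upper-quartile factors, 40 were called higher and 46 lower, and that median was -0.10. No called member was called in the opposite direction in any alternative run. Of the calls, 41 of the 50 rises and 26 of the 37 falls held in each fit that left out 1 library. Only 32 of the 50 rises and 19 of the 37 falls were called in all planned fits. Fold changes also rose with region length, in the members (Spearman rho 0.35, n = 351) as in mRNAs further in (rho 0.33, n = 4451), a description across genes that share 4 libraries. The members that rose had a median length of 1935.5 bases, those that fell 1158 and the uncalled ones 1528.5. With a length offset, 42 of the 50 rises and 23 of the 37 falls were still called.

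The change did not follow distance from the end, as the selection rule measures it, in a simple order. On right arms that distance starts at the last counted region, 2804 to 33885 bases inside the reference chromosome end. The bins were not redone from the reference ends. Of all regions tested, 9.08% rose and 8.15% fell. Within the outermost 10 kb, 6 of 48 tested members rose and 8 fell, and the median log2 fold change was -0.18. Between 10 and 20 kb, 19 of 82 rose (23.2%) and 5 fell, with a median of 0.08. Between 20 and 30 kb, 12 of 107 rose and 13 fell, and between 30 and 40 kb, 13 of 114 rose and 11 fell. Further in, 14 of 261 mRNAs rose and 15 fell at 40 to 60 kb, and 23 of 270 rose and 29 fell at 60 to 80 kb. Across the members, log2 fold change and distance had a Spearman rho of 0.01 (n = 351) and the absolute log2 fold change and distance had -0.12, which is a description across genes.

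**Figure D1:**
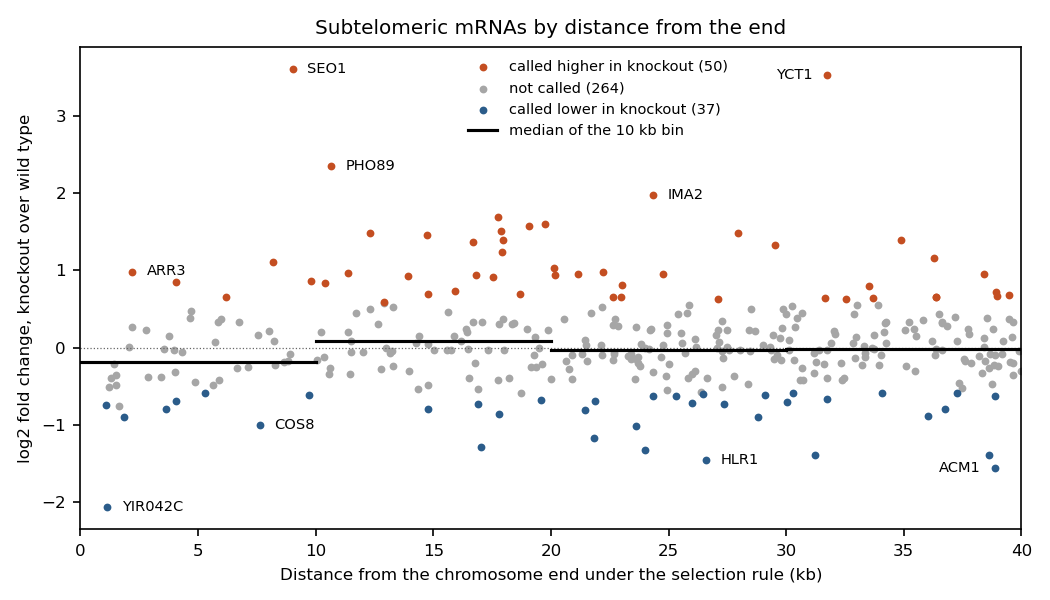
Log2 fold change (knockout over wild type, edgeR) of the 351 tested subtelomeric mRNAs against the distance of their inner border from the chromosome end under the selection rule (kb); points are mRNAs, coloured by call, and black lines are medians of 10 kb bins. Called rises reach 3.61 and called falls -2.07, while the bin medians stay between -0.18 and 0.08.

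The level per length was lowest in the outermost bin of the selection rule in both groups. On right arms that bin starts at the last counted region and not at the chromosome end. In the outermost 10 kb the median was 18.7 CPM per kb of region in knockout and 16.5 in wild-type libraries. It was 42.3 in knockout and 39.6 in wild-type libraries between 10 and 20 kb. Between 20 and 30 kb it was 73.0 in knockout and 70.3 in wild-type libraries, and between 30 and 40 kb it was 64.4 in knockout and 64.2 in wild-type libraries. Over all members the median was 50.9 CPM per kb in knockout and 51.3 in wild-type libraries, against 66.3 in knockout and 66.2 in wild-type libraries for mRNAs further in. The wild-type level per length and the distance had a Spearman rho of 0.28 across the 351 members. The gradient thus had nearly the same values in both groups. The highest wild-type levels per length were those of YLR460C (1733 CPM per kb in knockout, 2465 in wild type), YML131W (1342 in knockout, 1393 in wild type), YDR524C-B (1006 in knockout, 1162 in wild type), ADH6, an NADPH-dependent alcohol dehydrogenase (911 in knockout, 1092 in wild type), and YCR102C (686 in knockout, 1051 in wild type). YCR102C was the only one of these 5 that was called. For YLR460C and YCR102C, 16.5% and 14.6% of the 50-mers occur elsewhere in the genome.

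**Figure D2:**
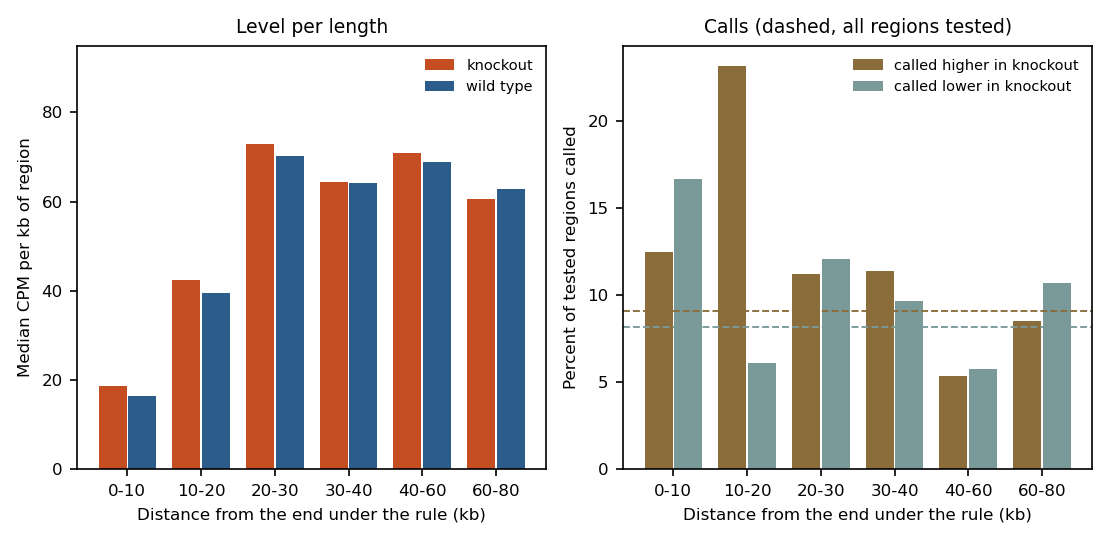
Left, median level per length (CPM per kb of region) in knockout (orange) and wild type (blue) by distance from the end under the selection rule (kb); right, percent of tested regions called higher (brown) or lower (grey-green) in the knockout, with dashed lines at the values of all regions tested (9.08% and 8.15%). The 0 to 10 kb bin has the lowest level in both groups, and the 10 to 20 kb bin has the highest share of rises (23.2%).

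Genes for the transport and use of sulfur compounds held the largest rises. Of the 18 genes in that list, 12 lay within 40 kb of an end and were tested. In the knockout 8 of them rose and 0 fell, where 9.08% of all regions tested rose and 8.15% fell. Their median log2 fold change was 1.14. The 1 counted gene of the list further in, MUP1, had 0.25 and was not called, and 1 gene allows no comparison of near with far. The list was chosen with earlier results of these data known, so its share of rises is not independent evidence. SEO1 (YAL067C, chromosome I, 7014 to 9049), a putative permease, was at 64.3 and 66.0 CPM in knockout and 5.59 and 5.04 CPM in wild-type libraries. Its log2 fold change was 3.61 ± 0.0854 (SE, edgeR adjusted p = 8.38e-08), the largest rise of all regions tested. YCT1 (YLL055W, chromosome XII, 29806 to 31740), a cysteine transporter, was at 607 and 649 CPM in knockout and 55.6 and 52.8 CPM in wild-type libraries, a log2 fold change of 3.53 ± 0.0629 (edgeR adjusted p = 2.41e-08). For both, every knockout library lay above every wild-type library by more than 10-fold.

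MMP1, MHT1, MUP3 and SAM3, which handle S-methylmethionine, methionine or S-adenosylmethionine, had smaller rises. MMP1, the S-methylmethionine permease, was at 856 and 878 CPM in knockout and 312 and 261 CPM in wild-type libraries (log2 fold change 1.60 ± 0.0821, edgeR adjusted p = 1.54e-06). Its divergent neighbour MHT1, which uses S-methylmethionine to methylate homocysteine, was at 286 and 278 CPM in knockout and 92.0 and 82.2 CPM in wild-type libraries (1.69 ± 0.0651). The MHT1 region overlaps another counted region on its own strand. MUP3, a low-affinity methionine permease, was at 756 and 733 CPM in knockout and 281 and 252 CPM in wild-type libraries, with a log2 fold change of 1.48 ± 0.0647. The S-adenosylmethionine permease gene SAM3 was at 831 and 862 CPM in knockout and 469 and 401 CPM in wild-type libraries (0.96 ± 0.0767, edgeR adjusted p = 1.90e-05). The groups were apart for each of these 4 genes.

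OPT1, a transporter of oligopeptides and glutathione, reached 1644 and 1744 CPM in knockout, against 776 and 737 CPM in wild-type libraries (log2 fold change 1.16 ± 0.0638). BDS1, a sulfatase gene, differed more between replicates, at 60.7 and 93.2 CPM in knockout and 36.4 and 34.6 CPM in wild-type libraries (1.11 ± 0.166, edgeR adjusted p = 5.84e-04). The other 4 list members were not called. SAM4, which methylates homocysteine from S-adenosylmethionine and lies next to SAM3, had a log2 fold change of 0.00, the glutathione transferase gene GTT2 0.03, the sulfonate transporter gene SOA1 0.14, and FZF1, a regulator of sulfite export, -0.14. SAM4 was at 217 and 212 CPM in knockout and 221 and 207 CPM in wild-type libraries, so that the groups overlapped.

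**Figure D3:**
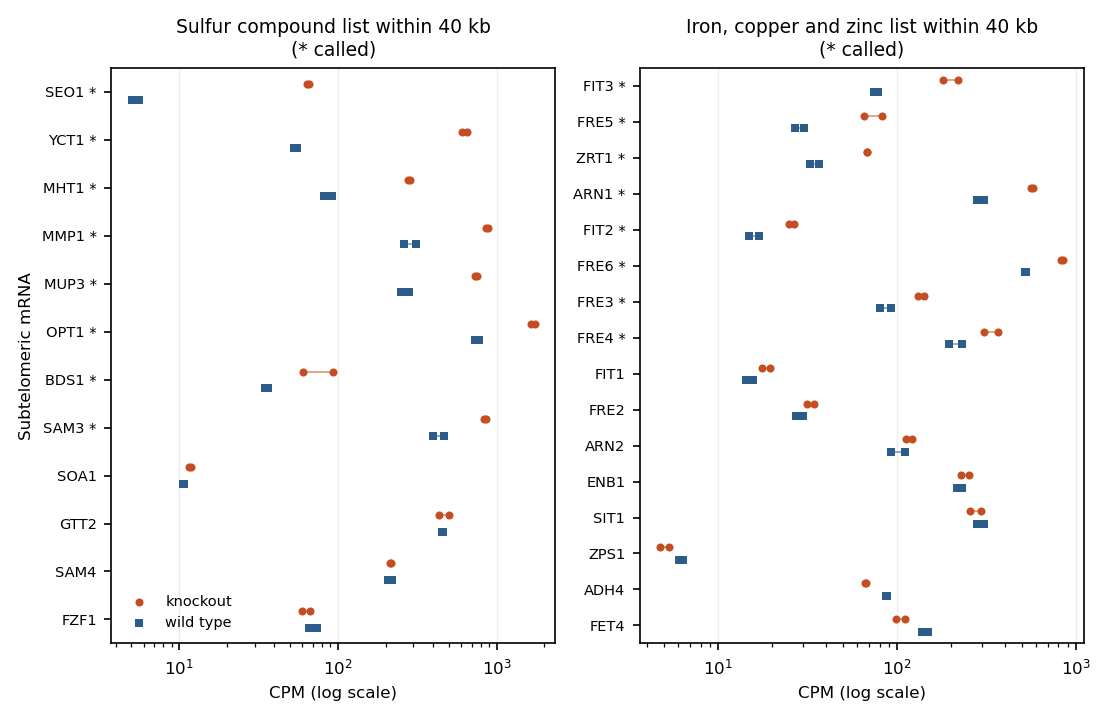
CPM (log scale) of each library for the subtelomeric members of the sulfur compound list (left, 12 mRNAs) and of the iron, copper and zinc list (right, 16 mRNAs), ordered by log2 fold change; orange circles are knockout and blue squares wild-type libraries, and asterisks mark called mRNAs. In each list 8 members were called. Both knockout libraries lay above both wild-type libraries for each, as they did for all 50 members called higher and for 40.5% of all regions tested.

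Of 16 tested members for iron, copper and zinc uptake, 8 rose in the knockout and 0 fell. Among all regions tested, 9.08% rose and 8.15% fell. The median log2 fold change of the 16 members was 0.48. This list too was chosen with earlier results of these data known. Of the 10 further in, 2 rose and 1 fell, with a median of 0.16. FIT3, a cell wall mannoprotein that retains siderophore iron, was at 181 and 219 CPM in knockout and 74.1 and 78.0 CPM in wild-type libraries, with a log2 fold change of 1.40 ± 0.0876 (edgeR adjusted p = 4.56e-06). FRE5, a putative ferric reductase beside it, was at 65.6 and 82.5 CPM in knockout and 30.1 and 27.0 CPM in wild-type libraries (1.37 ± 0.110). The siderophore transporter gene ARN1 was at 579 and 560.5 CPM in knockout and 307 and 281 CPM in wild-type libraries (0.96 ± 0.0594), and the zinc transporter gene ZRT1 at 68.1 and 67.9 CPM in knockout and 36.5 and 32.5 CPM in wild-type libraries (0.98 ± 0.0723). Both knockout libraries exceeded both wild-type libraries for these genes.

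The other 4 rises of the metal list were between 0.65 and 0.70 on the log2 scale, for FIT2, FRE6, FRE3 and FRE4. The calls of FRE3, FRE4 and FRE6 were lost with the length offset, that of FRE4 also without knockout replicate 2 (0.52), and those of FRE3 (0.55) and FRE4 (0.54) without wild-type replicate 2. Siderophore transporter genes did not move together. ARN2 (log2 fold change 0.20), SIT1 (-0.10) and ENB1 (0.10) were not called, while ARN1 was. FET4, a low-affinity iron transporter gene near the right end of chromosome XIII, was at 99.5 and 110.4 CPM in knockout and 149 and 138 CPM in wild-type libraries. Its log2 fold change of -0.45 stayed under the fold change minimum.

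Among the other large rises were transporters of phosphate, amino acids and peptides. PHO89, a sodium-dependent phosphate transporter, was at 464 and 418 CPM in knockout and 93.5 and 79.5 CPM in wild-type libraries, a log2 fold change of 2.35 ± 0.0871 (edgeR adjusted p = 3.16e-07). The other phosphate transporter gene near an end, PHO84, was at 1123 and 995 CPM in knockout and 1369.8 and 1412 CPM in wild-type libraries (-0.39 ± 0.0716) and was not called. The 2 transporter genes thus differed in direction. AGP3, an amino acid permease, was at 63.3 and 65.5 CPM in knockout and 21.9 and 21.4 CPM in wild-type libraries (1.57 ± 0.0659), and OPT2, an oligopeptide transporter, at 13.7 and 17.3 CPM in knockout and 4.91 and 5.92 CPM in wild-type libraries (1.51 ± 0.150). CAN1, the arginine permease, and PTR2, the dipeptide transporter, rose by 0.65 and 0.62 on the log2 scale, and both calls were lost with the length offset, that of PTR2 also without knockout replicate 1 (0.58).

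Outside transport, the called rises came from genes of varied roles. RMD6, known for a role in meiotic nuclear division, was at 118 and 99.97 CPM in knockout and 40.4 and 38.6 CPM in wild-type libraries (log2 fold change 1.47 ± 0.0842, edgeR adjusted p = 2.82e-06). BDH2, a putative butanediol dehydrogenase, was at 20.6 and 19.9 CPM in knockout and 7.78 and 7.56 CPM in wild-type libraries (1.40 ± 0.0943), and its tandem neighbour BDH1 rose by 0.66, a call lost without knockout replicate 2 (0.56). YMR316C-A, an uncharacterised frame that overlaps a region on the other strand, was at 4.07 and 5.28 CPM in knockout and 1.42 and 1.88 CPM in wild-type libraries (1.49 ± 0.209). Whether the counting used strand is not given in the sources used here, and how reads in such overlaps were assigned was not tested. PXP3, whose region lies inside that of PAU13 on the other strand, still had counts of its own. These were 4 and 2 in knockout and 13 and 6 in wild-type libraries. DLD3, a cytosolic hydroxyacid dehydrogenase, had the highest knockout level per length of the called rises, 754 CPM per kb, against 318 CPM per kb in wild type.

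**Figure D4:**
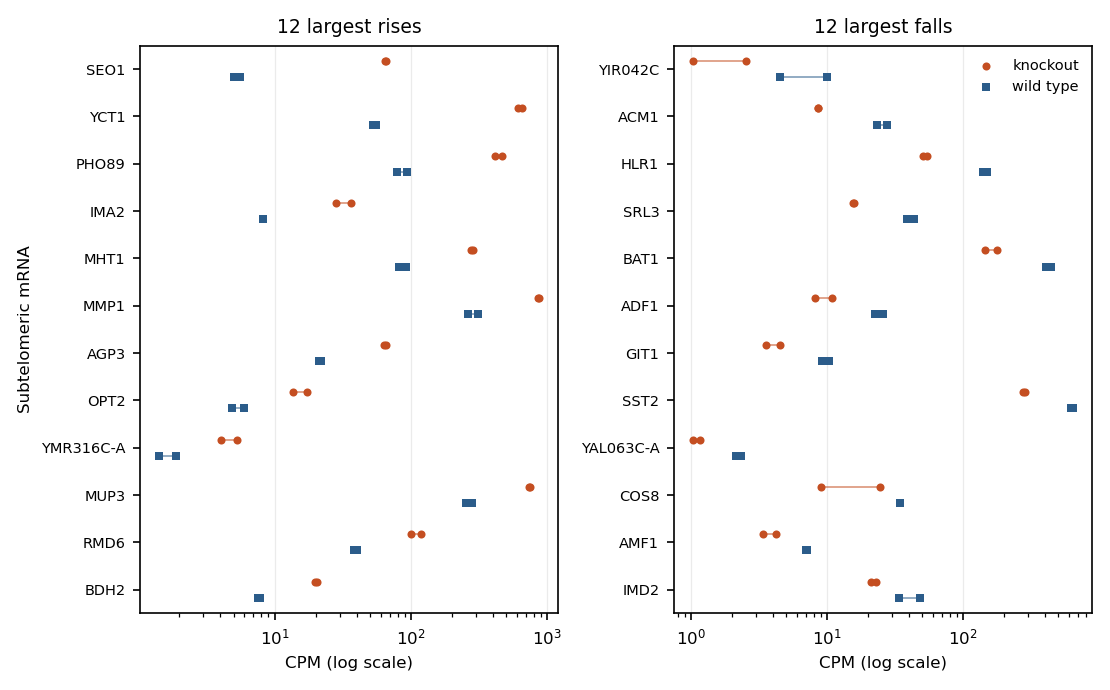
CPM (log scale) of each library for the 12 subtelomeric mRNAs with the largest called rises (left) and the 12 with the largest called falls (right); orange circles are knockout and blue squares wild-type libraries. The groups do not overlap for any of the 24, as their selection required, and the replicates of YIR042C in both groups and of COS8 in the knockout lie farthest apart.

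The next genes were chosen after their values were seen. ALD4, the mitochondrial aldehyde dehydrogenase, was at 273 and 278 CPM in knockout and 141 and 143 CPM in wild-type libraries (log2 fold change 0.95 ± 0.0495, edgeR adjusted p = 1.62e-06), and ATP1, a subunit of the mitochondrial ATP synthase, rose by 0.72. The paralogs of branched-chain amino acid aminotransferase differed in sign. BAT2, the cytosolic enzyme, was at 236 and 252 CPM in knockout and 153 and 157 CPM in wild-type libraries (0.66 ± 0.0551), while BAT1, the mitochondrial enzyme, was at 146 and 176 CPM in knockout and 406 and 439 CPM in wild-type libraries and fell by 1.40 on the log2 scale (SE 0.0872). In the allantoin gene cluster on chromosome IX right, the malate synthase gene DAL7 was at 224 and 223 CPM in knockout and 127 and 128 CPM in wild-type libraries (0.81 ± 0.0494). The allantoicase gene DAL2 of the same cluster was at 9.13 and 8.04 CPM in knockout and 12.2 and 14.4 CPM in wild-type libraries (-0.63 ± 0.127). The DAL2 call was lost with the length offset (-0.56), without knockout replicate 2 (-0.55) and without wild-type replicate 2 (-0.50), each under the fold change minimum.

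The falls were smaller than the rises and came from genes of varied roles. ACM1, an inhibitor of the anaphase-promoting complex, was at 8.61 and 8.64 CPM in knockout and 23.4 and 27.4 CPM in wild-type libraries (log2 fold change -1.56 ± 0.110, edgeR adjusted p = 9.64e-06). SRL3, also known as WHI7 and a regulator of cell cycle start, was at 15.8 and 15.4 CPM in knockout and 38.5 and 43.9 CPM in wild-type libraries (-1.40 ± 0.0914). HLR1, a relative of LRE1 linked to cell wall function, was at 54.6 and 50.8 CPM in knockout and 140.4 and 149 CPM in wild-type libraries (-1.46 ± 0.0642), and it overlaps a region on the other strand. The groups were well apart for these genes. SST2, which turns off pheromone signalling at the G protein, was at 283 and 277 CPM in knockout and 622 and 639.8 CPM in wild-type libraries (-1.17 ± 0.0511), beside the lower STE2 level given above. KAR4, a transcription factor of karyogamy genes, fell by 0.62, a call lost with the length offset (-0.56), without knockout replicate 2 (-0.58) and without wild-type replicate 2 (-0.57).

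Transport and biosynthesis genes were among the falls too. GIT1, the glycerophosphoinositol permease, was at 3.59 and 4.48 CPM in knockout and 10.4 and 9.19 CPM in wild-type libraries (log2 fold change -1.29 ± 0.148, edgeR adjusted p = 1.39e-04). AMF1, a low-affinity ammonium transporter gene that overlaps a region on its own strand, was at 3.39 and 4.20 CPM in knockout and 7.02 and 7.13 CPM in wild-type libraries (-0.91 ± 0.145). IMD2, an IMP dehydrogenase of guanine nucleotide synthesis, was at 21.0 and 23.0 CPM in knockout and 48.2 and 33.8 CPM in wild-type libraries (-0.90 ± 0.156). The wild-type libraries of IMD2 differed more than those of the knockout, and 29.3% of its 50-mers occur elsewhere in the genome. BIO2, the biotin synthase gene, fell by 0.79, the ribosomal protein gene RPL8A by 0.88. The dihydroorotate dehydrogenase gene URA1 fell by 0.60, a call lost with the length offset (-0.55), without knockout replicate 1 (-0.56) and without wild-type replicate 1 (-0.55). The rRNA methyltransferase gene SPB1 fell by 0.59, a call that DESeq2 did not make and that was lost without knockout replicate 2 (-0.57) and without wild-type replicate 1 (-0.58).

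YIR042C, an uncharacterised gene and the last counted region on chromosome IX right, had the lowest log2 fold change of the members (-2.07 ± 0.472, edgeR adjusted p = 0.00519). Its values were 1.04 and 2.52 CPM in knockout and 4.48 and 10.1 CPM in wild-type libraries, so that the replicates of each group differed by more than 2-fold while the groups did not overlap. Without wild-type replicate 2 the log2 fold change of YIR042C was -1.37, above that of ACM1 (-1.44), and without knockout replicate 2 it was -2.81. ADF1 was at 10.9 and 8.13 CPM in knockout and 22.3 and 25.7 CPM in wild-type libraries (-1.33 ± 0.138). YAL063C-A, at 1.04 and 1.17 CPM in knockout and 2.14 and 2.33 CPM in wild-type libraries (-1.02 ± 0.218), shares 24.0% of its 50-mers with other sites. COS8, with 16.7% of its 50-mers repeated elsewhere, was at 24.5 and 9.11 CPM in knockout and 34.2 and 34.1 CPM in wild-type libraries (-1.0 ± 0.311, edgeR adjusted p = 0.0218). Without knockout replicate 2, the log2 fold change of COS8 was -0.48 and it was not called. The DESeq2 Wald test did not call it either.

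In the COS, maltose and isomaltose, aryl-alcohol dehydrogenase, seripauperin and Hsp31 lists, 2 of 15 tested members were called (13.3%), near the 17.2% of all regions tested that were called in either direction. Of 3 tested COS genes, whose proteins take part in the sorting of membrane proteins to the vacuole, COS8 was the only one called, while COS7 and COS12 had log2 fold changes of -0.02 and -0.04. Of 9 genes for maltose, isomaltose and sucrose, 7 were tested and 1 was called. That gene, the isomaltase gene IMA2, was at 36.6 and 28.4 CPM in knockout and 8.26 and 8.28 CPM in wild-type libraries (1.98 ± 0.129, edgeR adjusted p = 5.63e-06), with 53.6% of its 50-mers repeated elsewhere. The maltose permease gene MAL31 had 0.48, MAL11 0.39, the invertase gene SUC2 0.08 and the isomaltase gene IMA1 -0.34. The aryl-alcohol dehydrogenase genes AAD4, AAD10 and AAD14 had -0.09, -0.39 and -0.43 and were not called. PAU13, the 1 tested seripauperin gene of 3 within 40 kb, had -0.24 ± 0.276. HXT17, the 1 hexose transporter gene near an end, was not tested, while 4 of 7 tested hexose transporter genes further in rose (9.08% of all regions did). Among these rises, HXT6 and HXT7 have 79.8% and 87.9% of their 50-mers repeated elsewhere, so their counts are uncertain. HSP31, a glyoxalase and chaperone gene, had -0.01.

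Neither flocculin genes nor the helicase genes of Y′ elements were among the counted regions. Genes for silencing and telomere chromatin factors were examined wherever they lie. Of 23 tested further in, 0 rose (9.08% of all regions did) and 1 fell (8.15% of all regions did), SAS2, an acetyltransferase subunit gene, at a log2 fold change of -0.59. Of the 2 near an end, SIR1, which acts at the silent mating cassettes, was at 66.2 and 66.8 CPM in knockout and 54.4 and 55.7 CPM in wild-type libraries (0.27 ± 0.0574), and the histone deacetylase gene RPD3 was at 164 and 158 CPM in knockout and 193 and 190.2 CPM in wild-type libraries (-0.25 ± 0.0510). Both stayed under the fold change minimum although their groups did not overlap. HMRA1, in the silent cassette on chromosome III right, was at 6.58 and 4.67 CPM in knockout and 6.88 and 8.17 CPM in wild-type libraries. In a cell of mating type a the same sequence also lies at MAT, while the reference strain carries the α copy there, so the HMRA1 counts cannot be assigned to the silent copy.

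The number of calls differed between arms, which held 3 to 19 members each. Of all regions tested, 9.08% rose and 8.15% fell. The arms named here were picked from the 32 after their calls were seen, and differences between arms were not tested. Chromosome XV right held 15 members, of which 9 rose and 1, AMF1, fell, and the median log2 fold change was 0.70. From the end inward the rises there were YOR389W (0.85), the DNA photolyase gene PHR1 (0.97), FRE5, FIT3, FIT2, YOR381W-A (0.94), FRE3, YOR376W-A (0.79) and ALD4. FEX1, a fluoride exporter gene and the last counted region on that arm, had -0.36, and 70.8% of its 50-mers are repeated. Chromosome XII left held 9 members, of which 5 rose and 0 fell, with a median of 0.68, and the run from MHT1 to FRE6 also held YLL056C (1.33) and YCT1. Within it, GTT2 (0.03), HSU1 (0.44) and YLL054C (0.34) were not called. These 2 arms thus held 14 of the 50 rises, and 8 of those 14 belong to the sulfur or metal list.

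Of the 32 arms, 7 had falls only and 9 had rises only, where 9.08% of all regions tested rose and 8.15% fell. Falls only were found on III left, III right, IV left (2 of 11 tested), VII right (2 of 14), VIII right, XI left (1 of 8) and XII right (3 of 13). On chromosome III left, ADF1, PEX34, KAR4 and SPB1 fell and 0 of 13 members rose, and on chromosome III right YCR102C, GIT1 and YCR095W-A fell and 0 of 9 rose. YCR102C was at 978 and 1007 CPM in knockout and 1543 and 1499 CPM in wild-type libraries (log2 fold change -0.62 ± 0.0588). On chromosome VIII right 3 of 4 members fell, IMD2 as the last counted region and CRG1 and BAT1 about as far in as the rule reaches. No member was called on chromosome IX left (3 members), VI right (16) or XIV left (11). Of 319 pairs of tested members that are neighbours on an arm, both rose in 11 pairs, both fell in 5, and 1 pair moved in opposite directions. Since 14.2% of tested members rose and 10.5% fell, some such pairs arise without any link between neighbours. Pairs further in were not counted, so whether these numbers are unusual was not tested.

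**Figure D5:**
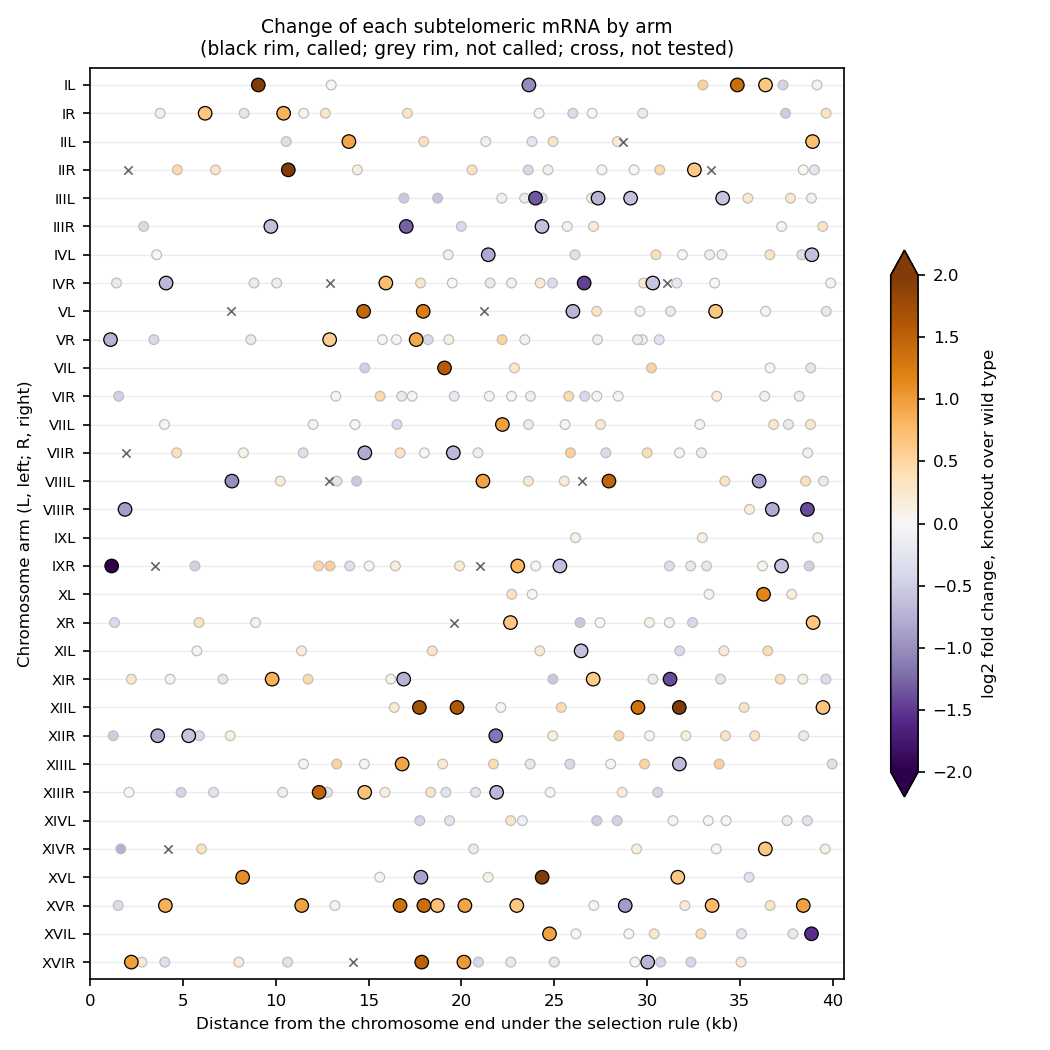
Each subtelomeric mRNA by chromosome arm (rows, L left and R right) and distance from the end under the selection rule (kb), coloured by log2 fold change (knockout over wild type, colour scale from -2 to 2); large points with a black rim are called, small points are not, and crosses were not tested. Chromosome XV right has 9 called rises and chromosome XII left 5, while IX left, VI right and XIV left have no call.

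By distance from the last counted region, the outermost member called higher was ARR3, an arsenite exporter gene and the last counted region on chromosome XVI right (inner border 2206 bases in), at 256 and 249 CPM in knockout and 124 and 132 CPM in wild-type libraries (log2 fold change 0.98 ± 0.0561, edgeR adjusted p = 2.81e-06). By the same distance, the outermost called lower was YER188W, the last counted region on chromosome V right (inner border 1084 bases in), at 1.67 and 1.45 CPM in knockout and 2.45 and 2.81 CPM in wild-type libraries (-0.75 ± 0.202). The groups did not overlap for either gene. Measured from the reference chromosome ends, other called members lie further out, since the last counted regions on these 2 arms end inside the chromosome. At the 40 kb limit, the members just inside had inner borders at 39977 bases (ATR1, log2 fold change -0.30) and 39899 bases (URC2, -0.04), and the mRNAs just outside were CBP1 (40062 bases, 0.16) and YFR034W-A (40127 bases, -0.49).

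The 15 members that were not tested had between 0 and 33 counts in any library. They were MAL12, MAL32, PAU15, HXT17, YEL073C, PXP3, STL1, YPR195C, DAN1, DAL3, DSF1, YHL037C, YBL100W-C, YDR524C-A and HAB1. STL1, a glycerol transporter gene, was counted 0 times in both knockout libraries, against 11 and 9 times in wild-type. In all, 28 members had over 10% repeated 50-mers, and without them 47 rises and 33 falls remained. Among the 28 were SAM4 (17.1%), COS8 (16.7%), YLR460C (16.5%) and YCR102C (14.6%). COS7 (78.4%), MAL12 (78.3%), MAL32 (74.4%), FEX1 (70.8%) and DSF1 (58.5%) had the largest repeated shares, and their counts are uncertain. A further limit is that 92 members overlap another counted region, and 45 rises and 32 falls lie outside those 92.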

How the data were processed

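Per the labels and the study's methods, the authors aligned paired-end reads to sacCer3 with STAR 2.3.0, filtered the alignments with SAMtools and used HTSeq for counting. The deposited counts are raw and per region. The deposited annotation gives region borders as genome positions, neither a ratio nor a level. The authors' table of their own comparison (mean normalized counts, log2 fold changes, errors and p-values from DESeq2) was not used. All 4970 regions lie inside the R64 chromosomes. The symbols of 362 members came from the RefSeq table, 0 count columns were unmapped and 0 rows named no gene.

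The test was the quasi-likelihood test of edgeR 4.0.16 (R 4.3.3) with TMM scaling and group as the only term. It was run on the 4845 regions whose mean count, after scaling by size factors from DESeq2 1.42.0, was at least 30 in either group, with Benjamini-Hochberg adjustment over these. Standard errors are the absolute log2 fold change over the square root of F and are approximate. CPM values are TMM-scaled, and no spike-in was used, so changes are relative to other RNAs of a library. The fit was tested on simulated data. Python 3.11.15, scipy 1.17.1 and matplotlib 3.10.9 were used for shares and figures. The study's methods call the libraries biological replicates, and with 2 per group p-values rest on little replication. Depth was 22880058 to 36175417 counts per library.

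Named genes are SYC1, the 12 largest called rises and 12 largest called falls whose libraries do not overlap, the 5 highest wild-type levels per length, the outermost calls, the genes at the 40 kb limit, members of 13 gene lists and the 5 most repeated members; other called members were named after their values were seen. Members, lists and tests were chosen with earlier results of these data known, so no list is independent evidence. Alternatives covered scaling, filter, test, length offset, replicate block, window, chromosome ends, overlapping and repeated members and each library left out.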

Additional observations from a re-analysis of the deposited data

How the results depend on the processing

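The number of members called stayed within 1.5 times of 50 rises and 37 falls under 17 alternatives each. The 20 kb window, which holds 139 mRNAs, gave 25 rises and 13 falls, and dropping the fold change minimum gave 133 and 123. Leaving out each library gave 45 to 53 rises and 32 to 37 falls. The median log2 fold change of the members (-0.02) was 0.0175 with the length offset, 0.0177 with the replicate block and length offset, -0.17 without normalization factors, -0.10 with upper-quartile factors and 0.0128 without overlapping members, and -0.0161 to 0.00344 when a library was left out. Its excess over mRNAs further in (-0.0053) was 0.0175 with the length offset, 0.0183 with the replicate block and length offset and 0.0257 without overlapping members, and -0.0037 to 0.0147 when a library was left out. The cause was not tested. The share difference (-0.253 points) was -0.0637 without the 5 most counted members, -0.0576 for the 20 kb window, and -0.264 to -0.242 when a library was left out.

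Residuals of same-numbered libraries correlated at -0.176. With 2 libraries per group the residuals mirror each other, so the crossed pairing has the same value with the opposite sign. Whether libraries share a batch was not tested. With a replicate block, 50 rises and 38 falls were called and the median was -0.02, and the crossed pairing, chosen after seeing the data, gave 50 and 38. Of 324 values of SYC1 and the 24 largest changes under the alternatives, 322 kept their call, and COS8 lost it with the DESeq2 Wald test (-1.01) and without knockout replicate 2 (-0.48). DESeq2 also lost NBP1, SEC11, SNA2 and SPB1. With 2 libraries per group and shallower knockout libraries, changes of members with few counts have wide errors, such as 0.472 for YIR042C.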
